A study of Mus musculus with 2 samples.

Results

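The genes described here are 10 genes used to mark the resident macrophages of the heart: the growth factor gene Csf1, its receptor gene Csf1r, the general macrophage genes Adgre1, Cd68 and Lyz2, and the genes Lyve1, Mrc1, Cd163, Folr2 and Timd4 of the self-maintained tissue subset. They were taken by symbol from a table of 43346 Ensembl genes, and all 10 had a row in both the gene and the transcript tables. They were measured by total RNA sequencing in single hearts of newborn mice (0 day old) of the inbred strain B6NCrl, with no other tissue, age, genotype or treatment in the series. The hearts were those of pup 2 and pup 3 of pregnancy 1, which carry the same donor identifier and whose sex was not collected. They form 1 group (n = 2), so the comparisons are between genes within a heart and between the littermates, and the purpose of the series is not stated in its labels.

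Macrophages settle in the heart before birth, from progenitors of the yolk sac and fetal liver, and live on locally by slow self-renewal. They depend on signals through the receptor Csf1r, which binds the cytokines Csf1 and Il34. In the adult mouse heart, the long-lived subset is marked by Timd4, Lyve1 and Folr2, takes up dying cells and debris, and is told apart from cells recruited from blood by the absence of the chemokine receptor Ccr2.

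The libraries held 46151722 expected counts in pup 2 and 44707283 in pup 3, and 13121 and 13162 genes reached 1 TPM (a transcript level scaled for length and depth). The tissue label was checked with 4 heart muscle genes: Tnnt2, cardiac troponin T, averaged 10319.7 ± 492 TPM, and Myl2, Myl7 and Nppa were each at 3814 TPM or above in both pups. Genes of 2 other cell sources differed between the littermates: a red blood cell list summed to 13812.5 TPM in pup 2 and 8837 TPM in pup 3, and a lung epithelium list to 36.7 and 659 TPM. Values after ± are SDs over the pups (n = 2). With 1 library a pup no p-value is given, and an exact sign-flip test over 2 pups could not go below a two-sided p of 0.5. Intervals and floors cover counting error only.

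Of the 10 macrophage genes, 8 reached 1 TPM in both pups, while 29.6% of all Ensembl genes and 54.5% of protein-coding genes did. Cd163 and Timd4 stayed below it. Lyz2 was the highest at 45.9 ± 3.69 TPM and alone made up 57.3% of the summed level of the 10 genes in pup 2 and 58.1% in pup 3. The sum was 75.6 TPM in pup 2 and 83.5 TPM in pup 3. Lyve1 came next at 11.2 ± 0.445 TPM, and below it Csf1, Cd68 and Csf1r lay together between 4.70 and 6.45 TPM. Mrc1, Adgre1 and Folr2 followed between 1.07 and 2.38 TPM, and the 8 detected genes spanned 41.6-fold. In a whole heart, fewer macrophages and less RNA per macrophage cannot be told apart.

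**Figure D1:**
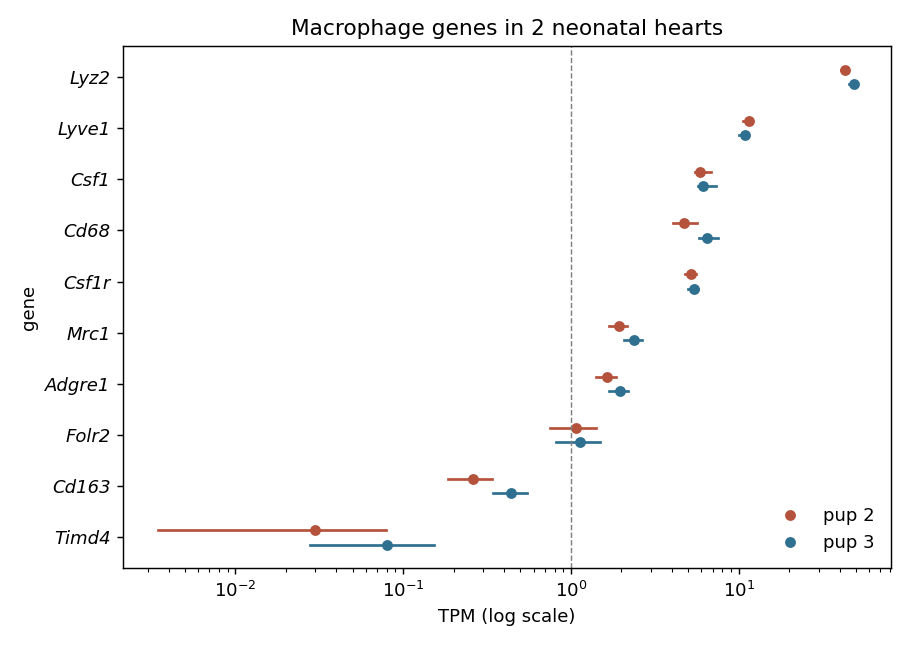
Level of each of the 10 macrophage genes in TPM on a log axis, with a point for pup 2 (above) and pup 3 (below) of each gene and the authors' deposited interval as a line. The dashed line marks 1 TPM: Lyz2 sits at the right at 43.3 and 48.5 TPM, and Cd163 and Timd4 lie left of the line in both pups.

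The order of the genes was firm in some places and not in others. Lyz2 stood 4.09-fold above Lyve1, and Lyve1 stood 1.86-fold above Csf1, with no overlap of pups or of deposited intervals. Cd68 could not be ordered against Csf1 above it or Csf1r below it, since the pups' values overlapped. Csf1r was 2.47-fold above Mrc1, without overlap. Mrc1 and Adgre1 overlapped. Adgre1 exceeded Folr2 1.63-fold in separate values, but their deposited intervals overlapped in at least 1 pup. Folr2 was 3.16-fold above Cd163, and Cd163 was 6.36-fold above Timd4 in mean TPM. The Timd4 level rests on 8 counts over both pups. On counts summed over the pups and divided by length, Cd163 was 6.86-fold above Timd4, with a counting interval from 3.36 to 16.3. Set among the 11699 protein-coding genes detected in both pups, Lyz2 was at percentile 80.8, Lyve1 at 48.0, Csf1 at 31.8 and Folr2 at 0.359. The median was 3.74 TPM over the 10 genes and 11.995 TPM over the detected coding genes. These sets are unlike, since the 10 include Cd163 and Timd4, which did not reach 1 TPM.

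The ligand gene and its receptor gene lay close together. Csf1, the macrophage colony-stimulating factor that keeps tissue macrophages alive (ENSMUSG00000014599.6, mm10 chromosome 3, 107741048 to 107760469, minus strand), was at 5.91 TPM in pup 2 and 6.15 TPM in pup 3, on 747 and 718 counts. The pups were within counting error of each other, with a log2 ratio of pup 2 over pup 3 of 0.03 and a 95% interval from -0.12 to 0.18. Csf1r, the receptor tyrosine kinase of the macrophage lineage (ENSMUSG00000024621.11, chromosome 18, 61100598 to 61132149, plus strand), was at 5.22 TPM in pup 2 and 5.44 TPM in pup 3, on 900 and 916 counts. Its ratio between the pups was -0.06 (-0.19 to 0.08), again within counting error.

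Within each heart, log2(TPM + 1) of Csf1 minus that of Csf1r was 0.15 in pup 2 and 0.15 in pup 3, a 1.13-fold higher mean TPM of the ligand. This small difference had the same sign in both hearts, but the deposited intervals of the genes overlapped in both, and on counts not divided by length its sign turned (-0.29). Il34, the other ligand of the receptor, was at 1.02 TPM in pup 2 and 0.84 TPM in pup 3. Csf1 was 6.48-fold above Il34 in mean TPM (log2 difference 1.87 ± 0.13), and no intervals overlapped. A limit applies to Csf1r: 873 of its 4885 exonic bases (17.9%) lie across from exons of Hmgxb3 on the other strand, a gene at 3.62 TPM in pup 2 and 2.93 TPM in pup 3. The sources used here do not say whether counting used strand, so reads from that stretch cannot be told apart; the posterior SD of the Csf1r count was 5.92 in pup 2 and 5.69 in pup 3. None of the other 9 genes shared exonic bases with another quantified gene.

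A list of 20 genes of the growth factor axis and of myeloid regulation, which counts Csf1 and Csf1r among them, was set beside this pair. Of the 20, 13 reached 1 TPM in both pups. Tyrobp, an adaptor of activating myeloid receptors, was highest at 22.9 TPM in pup 2 and 27.0 TPM in pup 3. Irf8, a transcription factor of the monocyte and macrophage lineage, was at 8.25 and 7.70 TPM, and Csf2ra, the receptor subunit for the cytokine GM-CSF, at 7.53 and 7.61 TPM. Spi1, which encodes the myeloid transcription factor PU.1, was at 2.36 and 2.41 TPM. Csf2 and Csf3, the genes of GM-CSF and G-CSF, had 0 counts in both pups, which allows up to 0.112 TPM of Csf2 in pup 2 and 0.113 TPM in pup 3, and 0.0598 and 0.0605 TPM of Csf3. Of 14 genes of this list counted well enough to compare the pups, 0 passed 1.5-fold in either direction, as 2.07% of all genes compared did, and their median log2 ratio, with Csf1 and Csf1r included, was -0.04.

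Among the general macrophage genes, Lyz2 and Cd68 were both lower in pup 2. Lyz2, lysozyme M, which breaks down bacterial cell walls (ENSMUSG00000069516.7, chromosome 10, 117277331 to 117282321, minus strand), was at 43.3 TPM in pup 2 and 48.5 TPM in pup 3, on 1929 and 2139 counts. Its log2 ratio was -0.18 (-0.27 to -0.09), a 1.13-fold difference beyond counting error, and the deposited TPM intervals of the pups did not overlap. Lyz2 is also expressed by neutrophils and by alveolar cells of the lung. Of 15 neutrophil and mast cell genes, 8 reached 1 TPM in both pups, and the list summed to 55.3 TPM in pup 2 and 58.1 TPM in pup 3. The 7 of them that were compared had a median log2 ratio of -0.28, the value of the mast cell gene Cpa3. Of their neutrophil genes, S100a8 was at 0.02, S100a9 at -0.05, Ngp at -0.44 and Ltf at -1.59. S100a8, a calcium-binding protein of neutrophils, was at 20.6 TPM in pup 2 and 20.1 TPM in pup 3, Ltf, the lactotransferrin of neutrophil granules, had 34 and 104 counts (log2 ratio -1.59), and Ly6g was at 0.03 TPM in both. Sftpc, the surfactant protein of alveolar type II cells, was at 25.5 TPM in pup 2 and 0.34 TPM in pup 3, while Sftpd, another surfactant protein, was at 0.32 and 1.42 TPM. Sftpa1, also a surfactant gene, was at 1.13 TPM in pup 2 and 0.31 TPM in pup 3. The lung list also holds club cell genes, and its median log2 ratio over 7 genes was -4.79. Of the 7, Sftpc was at 5.94, Ager at 1.11 and Abca3 at 0.08, while the other 4 were lower in pup 2. The part of neutrophils and alveolar cells in the Lyz2 level was not tested.

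Lyz1, the lysozyme paralog best known from Paneth cells of the gut, was far lower than Lyz2. It was at 1.10 TPM in pup 2 and 0.37 TPM in pup 3, on 48.9 and 16.3 counts, so that Lyz2 was 39.4-fold higher in pup 2 and 131-fold higher in pup 3 (log2 difference 4.79 ± 0.55). The transcripts of the pair share 422 words of 31 bases, 32.8% of those of Lyz2, so reads from these stretches had to be shared out between the genes. Lyz2 took 97.5% of the pair's counts in pup 2 and 99.2% in pup 3, and the posterior SD of its count was 0.92 and 0.58.

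The stretches upstream of the genes are shown for the paralogs, whose levels lie farthest apart of the 12 gene pairs compared, and further down for Cd68 and Mrc1, which hold the core motif of PU.1, the factor encoded by Spi1. Each runs 5′ to 3′ from 250 to 51 bases before the gene's start, from RefSeq on GRCm38.p6, at chr10:117282323-117282522 for Lyz2 and chr10:117292919-117293118 for Lyz1, both on the minus strand. Distances are counted from the RefSeq start. For Lyz2, Cd68 and Mrc1 it differs from the start in the gene coordinates printed here. The capitals mark GGAAGT or its reverse complement ACTTCC, the core motif of the ETS family to which PU.1 belongs.
Lyz2: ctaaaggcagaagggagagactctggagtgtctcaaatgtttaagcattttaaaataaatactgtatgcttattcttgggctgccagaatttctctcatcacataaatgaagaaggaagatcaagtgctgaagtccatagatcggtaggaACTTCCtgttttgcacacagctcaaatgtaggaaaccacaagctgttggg
Lyz1: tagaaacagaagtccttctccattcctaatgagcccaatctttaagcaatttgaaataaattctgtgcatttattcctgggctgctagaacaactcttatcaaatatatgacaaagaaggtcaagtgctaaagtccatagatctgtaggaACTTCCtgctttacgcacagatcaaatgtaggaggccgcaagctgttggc
The pair held the same bases at 102 of 200 positions (51.0%) when laid side by side without gaps. In this layout 79 of the nearer 100 positions were the same, against 23 of the farther 100. A layout with gaps was not made, so these counts do not show where the likeness ends in the windows. Each holds ACTTCC at the same place, its leading base 100 bases before the start, although the levels of the genes differ 62.5-fold in mean TPM. A match of letters is a description of the window and not a binding site.

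Cd68, macrosialin, a glycoprotein of lysosomes and endosomes (ENSMUSG00000018774.9, chromosome 11, 69664213 to 69666153, minus strand), was at 4.70 TPM in pup 2 and 6.45 TPM in pup 3, on 195 and 274 counts. It was 1.43-fold lower in pup 2, with a log2 ratio of -0.52 (-0.79 to -0.25), and the deposited intervals of the pups did not overlap. Adgre1, the adhesion receptor recognised by the F4/80 antibody (ENSMUSG00000004730.10, chromosome 17, 57358691 to 57483527, plus strand), was at 1.65 TPM in pup 2 and 1.96 TPM in pup 3, on 198 and 232 counts. Its ratio of -0.26 (-0.54 to 0.02) was within counting error. In both hearts Cd68 was above Adgre1, 3.09-fold in mean TPM (log2 difference 1.22 ± 0.16). Adgre1 in turn was 3.22-fold above Itgam, the integrin CD11b of myeloid cells in general, at 0.50 TPM in pup 2 and 0.62 TPM in pup 3.

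The upstream stretch of Cd68 (RefSeq, GRCm38.p6, chr11:69666221-69666420, minus strand, again from 250 to 51 bases before the start) is shown with 2 motifs in capitals. GAGGAA, the PU.1 core, begins 225 bases before the start, and TGAGTCA, the reverse complement of the AP-1 motif TGACTCA, lies 149 bases before it.
Cd68: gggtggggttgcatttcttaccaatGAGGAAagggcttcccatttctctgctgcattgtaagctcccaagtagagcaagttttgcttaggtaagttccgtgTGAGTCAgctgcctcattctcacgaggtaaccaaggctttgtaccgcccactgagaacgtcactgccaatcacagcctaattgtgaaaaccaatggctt
Over all 32851 windows of this kind, 18.8% held GAGGAA, 14.6% held GGAAGT and 3.61% held TGACTCA, on either strand and with overlapping matches counted for both. Windows were found for 7 of the 10 genes, 8 windows in all since Folr2 has 2. GAGGAA was in 2 of the 8 (Cd68 and Mrc1), GGAAGT in 4 (Mrc1, Folr2, Timd4 and Lyz2) and TGACTCA in 2 (Cd68 and Folr2). The windows of Csf1 and Cd163 held none of the 3 letter strings, which says nothing of the factors outside these bases. Adgre1, Lyve1 and Csf1r are not shown.

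The 5 genes of the resident subset ranged from 11.2 TPM down to a handful of reads. Lyve1, a hyaluronan receptor of tissue macrophages and lymphatic vessels (ENSMUSG00000030787.3, chromosome 7, 110850607 to 110863239, minus strand), was at 11.6 TPM in pup 2 and 10.9 TPM in pup 3, on 1105 and 1034 counts. It was the member with the highest ratio between the pups, 0.07 (-0.06 to 0.19), within counting error. Because lymphatic endothelium also makes Lyve1, a list of lymphatic and sinusoidal endothelium was measured beside it. Of its 10 genes, Lyve1 itself among them, 8 reached 1 TPM in both pups. The list with Lyve1 summed to 96.7 TPM in pup 2 and 105 TPM in pup 3. Sox18 led the sum at 40.4 and 41.2 TPM, and Ccl21a followed at 14.4 and 20.3 TPM (log2 ratio -0.51). Prox1, the transcription factor that sets lymphatic identity and that heart muscle also expresses, was at 13.1 and 13.4 TPM, while Flt4, the receptor for VEGF-C, was at 2.49 and 2.41 TPM. The share of Lyve1 from either cell type was not tested.

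Mrc1, the mannose receptor CD206 (ENSMUSG00000026712.3, chromosome 2, 14229392 to 14332057, plus strand), was at 1.93 TPM in pup 2 and 2.38 TPM in pup 3, on 347 and 424 counts. It was 1.25-fold lower in pup 2, with a log2 ratio of -0.32 (-0.53 to -0.11), although the deposited intervals of the pups overlapped. Lyve1 exceeded Mrc1 5.21-fold in mean TPM in both hearts (log2 difference of Mrc1 minus Lyve1 -1.96 ± 0.20). The related receptor Mrc2, a collagen receptor of stromal cells, was at 2.32 TPM in pup 2 and 2.34 TPM in pup 3, and its order with Mrc1 differed between the pups. The upstream stretch of Mrc1 (RefSeq, GRCm38.p6, chr2:14229164-14229363, plus strand) holds the PU.1 core in 2 places as TTCCTC, 180 and 167 bases before the start, and the ETS core as ACTTCC at 211, all in capitals.
Mrc1: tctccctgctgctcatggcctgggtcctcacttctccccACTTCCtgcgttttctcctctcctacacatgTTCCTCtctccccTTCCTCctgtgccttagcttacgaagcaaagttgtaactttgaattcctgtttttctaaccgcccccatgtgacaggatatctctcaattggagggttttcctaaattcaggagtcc

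Cd163, the scavenger receptor that clears haemoglobin bound to haptoglobin (ENSMUSG00000008845.5, chromosome 6, 124304656 to 124330527, plus strand), showed the widest difference between the littermates among the genes with enough counts. It was at 0.26 TPM in pup 2 and 0.44 TPM in pup 3, on 42 counts (exact Poisson interval 30.3 to 56.8) and 72 counts (56.3 to 90.7). It was 1.72-fold lower in pup 2, with a log2 ratio of -0.78 (-1.39 to -0.24), and the deposited intervals did not overlap. Mrc1 was 6.16-fold above Cd163 in mean TPM. The red blood cell genes differed the other way: 7 of 7 compared were 1.5-fold or more higher in pup 2, with a median log2 ratio of 0.66, led in level by Hba-a2, an alpha globin gene, at 6299 TPM in pup 2 and 3996 TPM in pup 3. Their part in the Cd163 difference was not tested.

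Folr2, folate receptor beta (ENSMUSG00000032725.9, chromosome 7, 101839988 to 101857194, minus strand), was at 1.07 TPM in pup 2 and 1.14 TPM in pup 3, on 40 and 42 counts. Its ratio of -0.10 had an interval from -0.76 to 0.56, so a difference of less than that size was not detectable at this depth. Its paralog Folr1, folate receptor alpha of epithelia, was 2.14-fold higher than Folr2, at 2.57 TPM in pup 2 and 2.15 TPM in pup 3. Timd4, the receptor for phosphatidylserine on dying cells (ENSMUSG00000055546.6, chromosome 11, 46810800 to 46844332, plus strand), had 2 counts in pup 2 and 6 counts in pup 3, or 0.03 and 0.08 TPM. A level of 3 counts, the most that chance could leave at 0, would be 0.0379 and 0.0383 TPM, so the pup 2 value lies under this floor. The interval of its log2 ratio, -4.96 to 0.87, allowed a difference in either direction. Havcr2, another gene of the TIM family, was at 0.05 TPM in pup 2 and 0.08 TPM in pup 3, and the order of the pair was not resolved.

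Compared between the littermates, most of the 10 macrophage genes leaned towards lower values in pup 2. Ratios were read for the 8 genes whose counts averaged at least 50, which left out Folr2 and Timd4. Of these 8, 1 (Cd163) passed 1.5-fold, lower in pup 2, where 2.07% of all 13463 genes compared did, 0.884% as higher and 1.19% as lower in pup 2. At 1.2-fold 3 of 8 passed, Cd68, Mrc1 and Cd163, all lower in pup 2, where 15.2% of all genes passed, 7.35% as higher and 7.90% as lower in pup 2. Ratios below 0 were found for 6 of 8, against 49.4% of all genes, the exceptions being Lyve1 and Csf1. The counting interval left out 0 for 4 of 8 (Lyz2, Cd68, Mrc1 and Cd163), against 39.0% of all genes, and the deposited TPM intervals of the pups were apart for 3 of 8, against 17.6%. The median ratio of the 8 was -0.22, with a range from -0.78 to 0.07, while the median over all genes was 0.00 and the middle of their distribution ran from -0.10 to 0.11. A longer list of 25 general macrophage genes, some of them among the 10, had a median of -0.08, within that middle range. Other genes were lower in pup 2 as well. The neutrophil and mast cell list had a median of -0.28, the value of its mast cell gene Cpa3. Myl7, the atrial myosin light chain, was at -0.36. The part of these genes in the macrophage ratios was not tested. The 10 genes are few, share cells and were not drawn at random, so these counts describe these libraries.

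**Figure D2:**
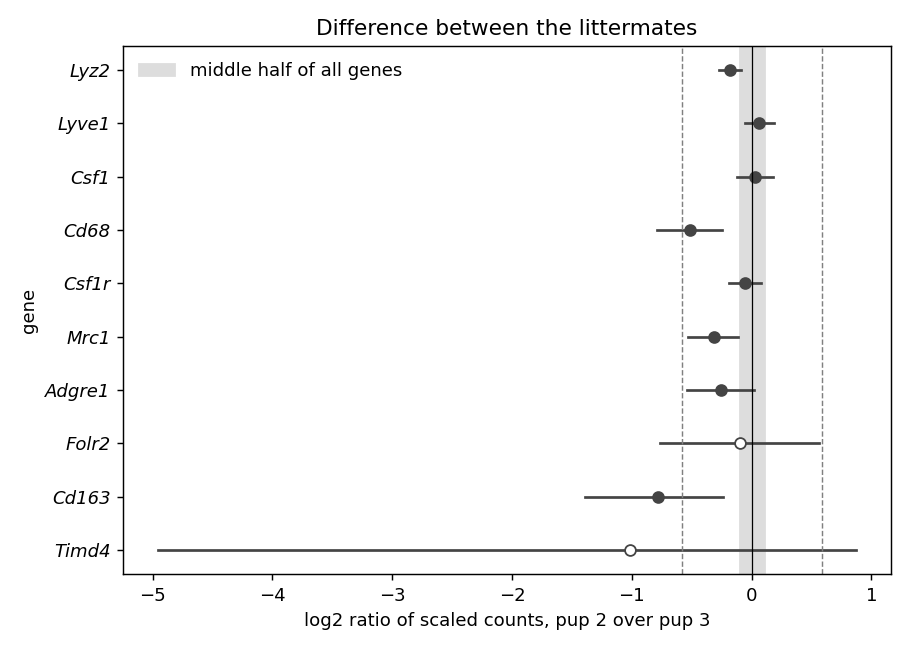
Log2 ratio of scaled counts, pup 2 over pup 3, for each gene, with its 95% counting interval as a line and open points for the genes below a mean count of 50 (Folr2 and Timd4). The grey band holds the middle 50% of all genes, from -0.10 to 0.11, and the dashed lines mark 1.5-fold: Cd163 at -0.78 is the only filled point past a dashed line.

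Most genes were read mainly from 1 transcript form. The tables list 22 transcripts of the 10 genes, and Lyve1, Folr2, Timd4 and Lyz2 have 1 each. Csf1 was the most divided. Csf1-201, its longest form of 4176 bases, held 47.5% of the gene's TPM in pup 2 and 38.7% in pup 3. Csf1-202, which codes for 257 residues in place of 552, held 36.7% in pup 2 and 33.9% in pup 3. Csf1-203, which codes for 552 residues on a transcript of 2078 bases, held 12.8% in pup 2 and 23.0% in pup 3. The deposited intervals of each Csf1 form overlapped between the pups, so their shares were not resolved as different.

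Csf1r-202 held 90.0% of the receptor's TPM in pup 2 and 83.2% in pup 3, and the shorter Csf1r-201, which codes for 977 residues like the longer form, held the rest at 10.0% and 16.8%. For Mrc1, 82.8% in pup 2 and 83.1% in pup 3 was Mrc1-201, the form coding for 1456 residues. A retained intron form, Mrc1-202, which codes for no protein in the annotation, took 17.2% and 16.9%, so the coding level of Mrc1 was 1.60 TPM in pup 2 and 1.98 TPM in pup 3. Cd68-201 held 93.1% in pup 2 and 97.4% in pup 3, Adgre1-202 held 100% and 92.5%, and Cd163-201 held 100% in both, with 0 counts for Cd163-202, although the deposited interval of that form reached 0.257 TPM in pup 2 and 0.231 TPM in pup 3. Between the pups, the intervals of a transcript were apart for 2 of 22, Cd68-201 and Lyz2-201. The share over all transcripts is not given here, so this count has no background. The intervals of Cd163-201 overlapped, 0.0000166 to 0.268 TPM in pup 2 and 0.185 to 0.523 TPM in pup 3, although those of its gene did not.

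**Figure D3:**
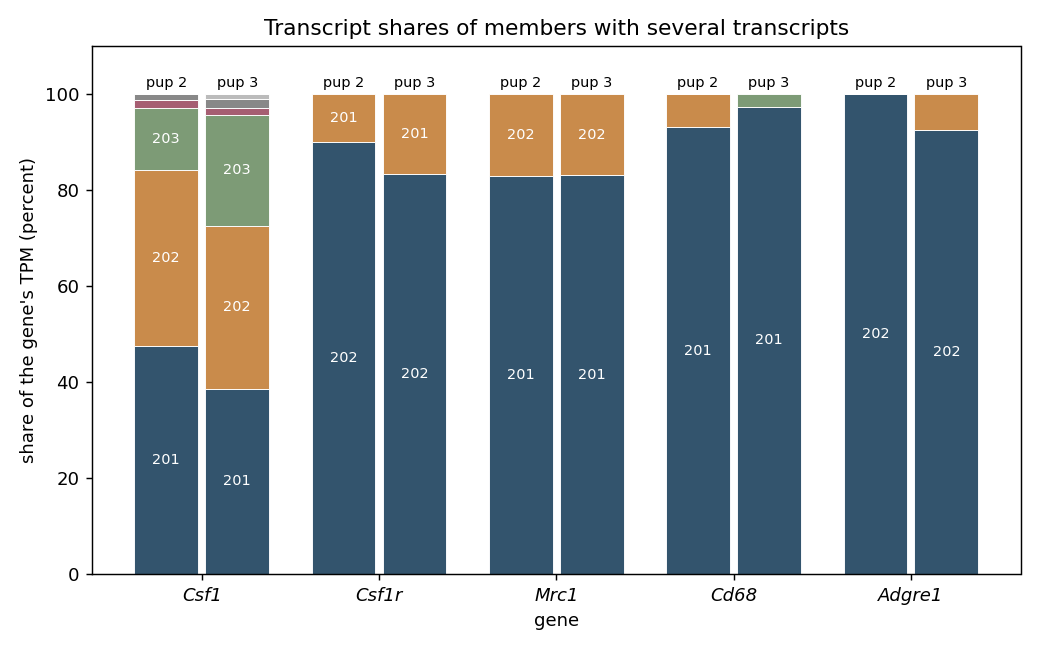
Share of each gene's TPM, in percent, taken by each of its transcripts in pup 2 (left bar) and pup 3 (right bar), for Csf1, Csf1r, Mrc1, Cd68 and Adgre1; segments of 10% or more carry the last 3 digits of the transcript's name and other colours are the gene's remaining forms. Csf1 is divided among 3 forms of 10% or more, while a single form holds over 80% of each of the other 4 genes.

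Longer lists of cell type genes, 4 of whose general macrophage genes are among the 10, were set beside them. Of 25 general macrophage genes, 21 reached 1 TPM in both pups. They were led by Lgmn, a lysosomal protease, at 71.6 TPM in pup 2 and 72.7 TPM in pup 3, and Pf4, a chemokine shared with platelets, at 47.2 and 51.9 TPM. C1qb, a complement subunit made by macrophages, was at 28.3 and 30.1 TPM. The list's median ratio over all 25 was -0.08, and only Cd14, a coreceptor for bacterial lipopolysaccharide, passed 1.5-fold, at 0.93 TPM in pup 2 and 1.46 TPM in pup 3 (log2 ratio -0.65).

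Ccr2, the chemokine receptor of recruited monocytes, was at 0.54 TPM in pup 2 and 0.67 TPM in pup 3, and Csf1r was 8.81-fold above it in mean TPM (log2 difference 1.98 ± 0.047). Of 12 monocyte genes 5 reached 1 TPM in both pups, and of 14 genes of the resident subset list 9 did. The 14 resident genes, 5 of them among the 10, summed to 194 TPM in pup 2 and 224 TPM in pup 3, against 94.4 and 87.3 TPM for the monocyte genes, a log2 ratio of 1.03 in pup 2 and 1.35 in pup 3. The sums rest on genes that other heart cells express too: Gas6, a bridging ligand for the uptake of dying cells, at 134 TPM in pup 2 and 131 TPM in pup 3, led the resident list, and Fn1, fibronectin, at 64.3 and 58.1 TPM, led the monocyte list. Cbr2 of the resident list, described below, was at 1.84 TPM in pup 2 and 33.3 TPM in pup 3. Its gap between the pups in TPM was wider than that of the resident sum. A version without 7 such genes, Cbr2 among them, left out after their values were seen, gave a log2 ratio of 0.68 in pup 2 and 0.70 in pup 3. Lyve1, which lymphatic endothelium also makes, was kept: it held 11.6 of 20.5 resident TPM in pup 2 and 10.9 of 21.5 in pup 3. The monocyte genes then summed to 12.4 and 12.9 TPM. Without the resident genes that another list holds, the log2 ratio was -1.82 in pup 2 and -0.51 in pup 3, so the direction depends on the genes chosen. Cbr2 stayed in this last version, where it held 1.84 of 26.1 resident TPM in pup 2 and 33.3 of 61.1 in pup 3.

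Cbr2, a carbonyl reductase of the resident subset that lung club cells also make, was at 1.84 TPM in pup 2 and 33.3 TPM in pup 3, the widest difference in the resident list (log2 ratio -3.73). Club cell genes of the lung list differed the same way, with Scgb3a2, a secretoglobin, at 2.96 TPM in pup 2 and 563 TPM in pup 3, and Cyp2f2 at 0.04 and 10.7 TPM. Of the lung list's 7 genes compared, 2 were 1.5-fold or more higher and 4 lower in pup 2. Their part in the Cbr2 level was not tested, and Cbr2 is not among the 10 genes.

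Other immune lists were sparse. Of 11 lymphocyte genes, 0 reached 1 TPM in both pups, and they summed to 1.85 TPM in pup 2 and 2.05 TPM in pup 3. Of 13 genes of antigen presentation and dendritic cells 6 were detected; H2-Aa and H2-Ab1, chains of MHC class II, were lower in pup 2 past 1.5-fold, with log2 ratios of -0.66 and -0.77, while H2-Eb1, another chain, was at -0.03. Of 10 genes of macrophages in other organs, 4 were detected, led by Ctsk, a bone-resorbing protease also made by fibroblasts, at 14.6 TPM in pup 2 and 15.1 TPM in pup 3, while Clec4f of liver macrophages was at 0.45 and 0.50 TPM. Fibroblasts are a known source of Csf1, and their 8 listed genes, all detected, had a median ratio of -0.09 with 0 past 1.5-fold. Among the scavenger and clearance genes, 13 of 17 were detected, led by Cd36, a fatty acid transporter of heart muscle and vessels, at 357 TPM in both pups, and their median ratio was 0.03.

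**Figure D4:**
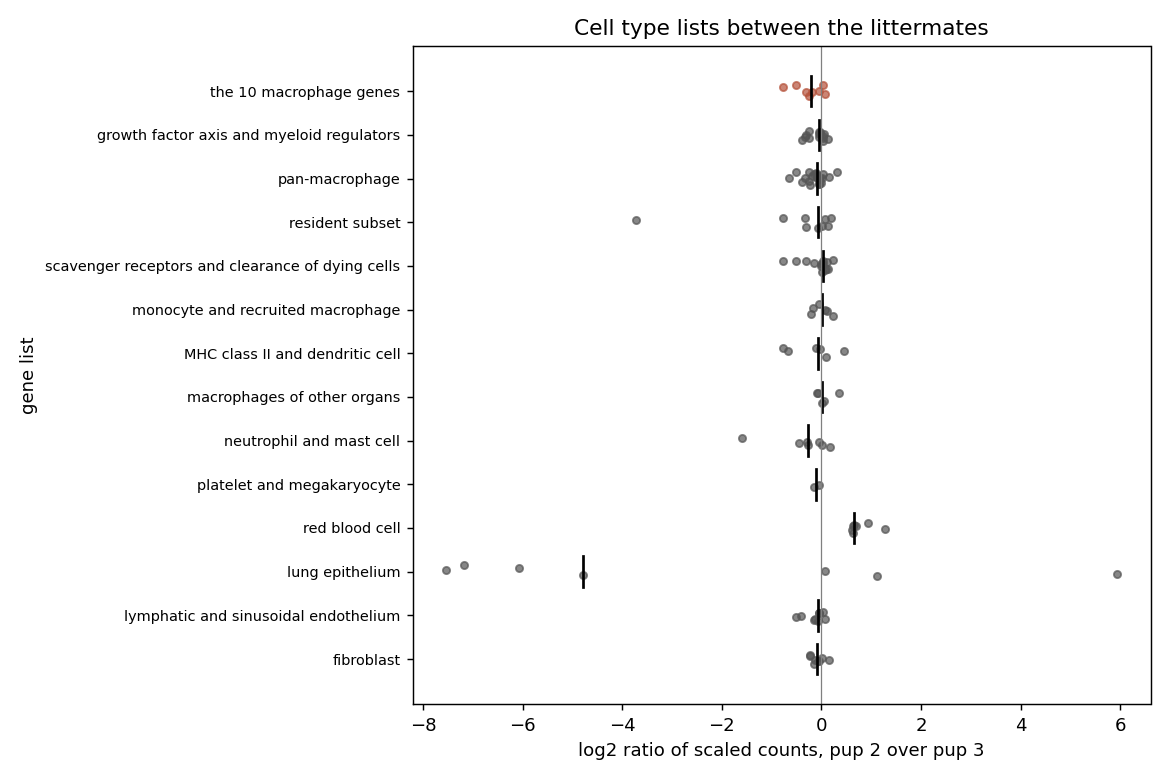
Log2 ratio of scaled counts, pup 2 over pup 3, of each gene counted at least 50 times on average, in 14 lists, with a point per gene and a vertical bar at each list's median; the 10 macrophage genes are in red at the top. Macrophage, monocyte, lymphatic and fibroblast medians lie between -0.22 and 0.01, the neutrophil and mast cell median is lower at -0.28, the red blood cell median is at 0.66, and the lung epithelium genes spread from -7.53 to 5.94.

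Of the 12 gene pairs compared within the hearts, 10 kept 1 sign in both pups with a mean larger than the gap between the pups. The other 2, Timd4 with Havcr2 and Mrc1 with Mrc2, did not. The share over other gene pairs is not given here, so this count has no background. Csf1 over Csf1r is among the 10, although the deposited intervals of these genes overlapped in both pups. Folr2 over Timd4, both marks of the long-lived subset in the adult mouse heart, gave a log2 difference of 1.00 ± 0.014, a spread that the added pseudocount of 1 TPM narrows; with a pseudocount of 0.1 the difference was 2.98. Per length, Folr2 was 42.3-fold above Timd4 in pup 2, on 40 and 2 counts (counting interval 11.0 to 362), and 14.8-fold above it in pup 3, on 42 and 6 counts (6.27 to 42.6). The size of the fold was thus not resolved at this depth.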

How the data were processed

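Total RNA-seq of 2 neonatal hearts was analysed from deposited gene and transcript tables. Per the labels' protocols, RNA was extracted with mirVana, 10 ng of RNA above 200 bases entered each library with spike-ins, and a SMARTer Ultra Low manual is listed. Per the deposited read-me, mm10 and GENCODE M4 were used; the column names are RSEM's, while the aligner and its settings were not given in the sources used here. Per the file headers, expected counts are estimated reads per gene. TPM values, as deposited, are scaled by effective length (length minus 99 bases) and total, and FPKM values, as deposited, by effective length and reads. The authors' TPM intervals, a signal in TPM units, have a width not stated. The deposited percent column is a transcript's share of its gene. Of 43346 Ensembl genes, 42462 matched GENCODE M21, which gave symbols and coordinates.

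Ratios, pup 2 over pup 3, used expected counts scaled by TMM (edgeR 4.0.16, R 4.3.3) with a prior count of 2, over genes whose counts averaged at least 50. Ratio intervals are exact binomial, 95%. Genes within a heart were compared as log2(TPM + 1); a pair was called where both pups had 1 sign and the mean exceeded the gap between the pups. Alternatives included DESeq2 1.42.0 size factors. Python 3.11.15, pandas 2.3.3, numpy 2.4.6, scipy 1.17.1 and matplotlib 3.10.9 were used. On simulated data, log2 ratios of -0.8 and 0.8 returned medians of -0.78 and 0.84 over 50 genes each, and 1.32% of 13281 unchanged genes passed 1.5-fold.

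The 10 genes, 14 further lists and 12 pairs were chosen with earlier results of these data known. Named were the 10 genes, genes of pairs, of each list the 4 most abundant detected genes and those past 1.5-fold, and transcripts with 10% or more of a gene. Spi1, Hmgxb3, Ly6g, Ngp, Flt4, Clec4f, Csf2, Csf3, Sftpd, Sftpa1, Mertk, Axl and Stab2 are named outside this rule or after their values were seen. Some of the rule's genes are given only in their list's counts, and heart muscle genes served to check the tissue.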

Additional observations from a re-analysis of the deposited data

How the results depend on the processing

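The median ratio of the 8 genes compared lay between -0.28 (spike-in scaling, which puts the median of all genes at -0.06) and -0.20 (DESeq2 size factors), and 6 or 7 of the 8 were lower in pup 2 under each scaling. Spike-in scaling rests on only 262 counts in pup 2 and 246 in pup 3, and the counting error of that factor is not in these values. With no filter on low counts, 2 of 10 genes passed 1.5-fold, Timd4 on 8 reads in all joining Cd163. At 5 TPM, 4 genes were detected, and by FPKM 7 were. The shares of all genes at these alternative settings are not given here, so these counts have no background. Csf1 over Csf1r was 0.17 with a pseudocount of 0.1, 0.15 by FPKM, 0.23 by posterior mean TPM and -0.29 on counts not divided by length, which turned its sign; Lyz2 over Lyz1 was 5.94 with a pseudocount of 0.1. The resident over monocyte log2 ratio was 0.48 on counts not divided by length, -1.16 without genes that another list holds, which reversed it, and 0.69 without broadly expressed genes, an alternative chosen after seeing the data. Leaving out each pup gave 0.15 to 0.15 for Csf1 over Csf1r, 4.40 to 5.18 for Lyz2 over Lyz1, 1.03 to 1.35 for the resident ratio and 8 to 8 genes detected. Of 42 such values 32 were labelled the same. So were 99 of 100 values of single genes and 33 of 60 values of the other gene pairs. The criterion for this label is not given here, and values with the label did change. The Csf1 ratio between the pups turned from 0.03 to -0.03 with spike-in scaling, -0.06 by TPM and -0.09 by FPKM. The Timd4 ratio went from -1.02 to -1.42 by TPM and -1.58 by FPKM. The 7 genes detected by FPKM were also labelled the same. No paired analysis was possible because the series has 1 group. The length deposited for Csf1 was 3414 bases in pup 2 and 3190 bases in pup 3, and TPM and FPKM are scaled by effective length. Timd4 was at 0.03 and 0.08 TPM, and at 0.02 and 0.06 FPKM. The cause of the shifts was not tested. Folr2, Cd163 and Timd4 are limited by depth.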

Other observations

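Genes for the clearance of dying cells, several of which many heart cells express, ranged widely in level. Mfge8, a secreted protein that bridges dying cells to phagocytes, was at 188 TPM in pup 2 and 182 TPM in pup 3. Gas6, the ligand of the receptor Mertk, was at 134 and 131 TPM, while Mertk itself, a phagocyte receptor, was at 1.75 and 1.73 TPM. Axl, a related receptor, was at 24.7 TPM in pup 2 and 23.7 TPM in pup 3, and the scavenger receptor Stab1 at 19.7 and 18.6 TPM. Scarb1, a lipoprotein receptor that also binds dying cells, was at 44.4 TPM in pup 2 and 40.8 TPM in pup 3. Stab2, a scavenger receptor of sinusoidal vessels, was at 0.17 and 0.16 TPM.

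Mast cell genes were measured in both hearts. Cpa3, a mast cell protease, was at 12.4 TPM in pup 2 and 14.8 TPM in pup 3, and Kit, the stem cell factor receptor that other cells also carry, was at 3.29 and 2.93 TPM. Itga2b, the platelet integrin, was at 4.07 TPM in pup 2 and 4.22 TPM in pup 3, beside Pf4 at 47.2 and 51.9 TPM.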
